A study of Macaca mulatta with 8 samples.

Results

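ACKR1, APOLD1, EMCN, BCL6B and ANGPTL2, genes known from blood vessels, were followed between 2 areas of the rhesus macaque neocortex. They were chosen by name, as the probes whose RefSeq transcript matched one of these symbols in a rhesus gene table, and they make up 5 of the 835 genes that could be named on the array. Each has 1 probe: A_01_P018141 for ACKR1, A_01_P008352 for APOLD1, A_01_P000841 for EMCN, A_01_P011667 for BCL6B and A_01_P010983 for ANGPTL2. The primary motor cortex (M1, its forelimb region) drives voluntary movement, and A46, taken from both banks of the principal sulcus, is a prefrontal association area. Per the labels, the left hemispheres of 4 adolescent, untreated animals of 2.6 to 2.7 years gave both areas, and the animals had been perfused with heparinised saline before dissection. Total RNA of each area was measured on 4 single-colour arrays, numbered 1 to 4 within the area, and the series asks which genes differ between a motor and a prefrontal area. No label gives an animal for a number, so p-values without pairing measure only the spread between the arrays of an area.

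Brain vessels are lined by endothelial cells, which form the blood-brain barrier, steer leukocytes out of the blood and sprout into new vessels under the control of secreted angiogenic factors. ANGPTL2 is a secreted glycoprotein of the angiopoietin-like family, known in human and mouse for roles in angiogenesis and tissue inflammation. ACKR1 (also known as the Duffy antigen) is an atypical receptor that binds chemokines without signalling through G proteins and is best known from venular endothelium and red blood cells. EMCN, endomucin, is a sialomucin on the surface of venous and capillary endothelium that hinders leukocyte adhesion. BCL6B is a transcriptional repressor related to BCL6 and is enriched in endothelium. APOLD1 is an apolipoprotein L domain protein that was described in rodents as an early response gene of brain endothelium.

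A level below is the log2 processed intensity after subtraction of the array's 75th percentile, and a difference is the M1 value minus the A46 value. ANGPTL2, APOLD1, EMCN and BCL6B stood higher in M1, and ACKR1 stood higher in A46. The probes of all 5 genes were well above background at both spots on all 8 arrays. The 5 genes kept 1 direction in 4 of 4 same-numbered pairs of arrays, as did 33.3% of all 14683 tested probes. ANGPTL2, APOLD1, EMCN and BCL6B were higher in M1 in every pair (16.3% of all tested probes) and ACKR1 was higher in A46 in every pair (17.0%). In the limma fit without pairing, 0 of the 5 passed an adjusted p of 0.05 over all tested probes, where 0.184% of all tested probes did. At an unadjusted p under 0.05 there were 4 of 5 (9.46% of all tested probes). With the replicate number as a fixed block, ANGPTL2 and ACKR1 passed, 2 of 5, where 2.63% of all tested probes did (1.64% higher in M1, as ANGPTL2, and 0.988% higher in A46, as ACKR1), and all 5 had an unadjusted p under 0.05 (21.3%). The genes were chosen with results of these arrays known, so these shares are a description.

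**Figure D1:**
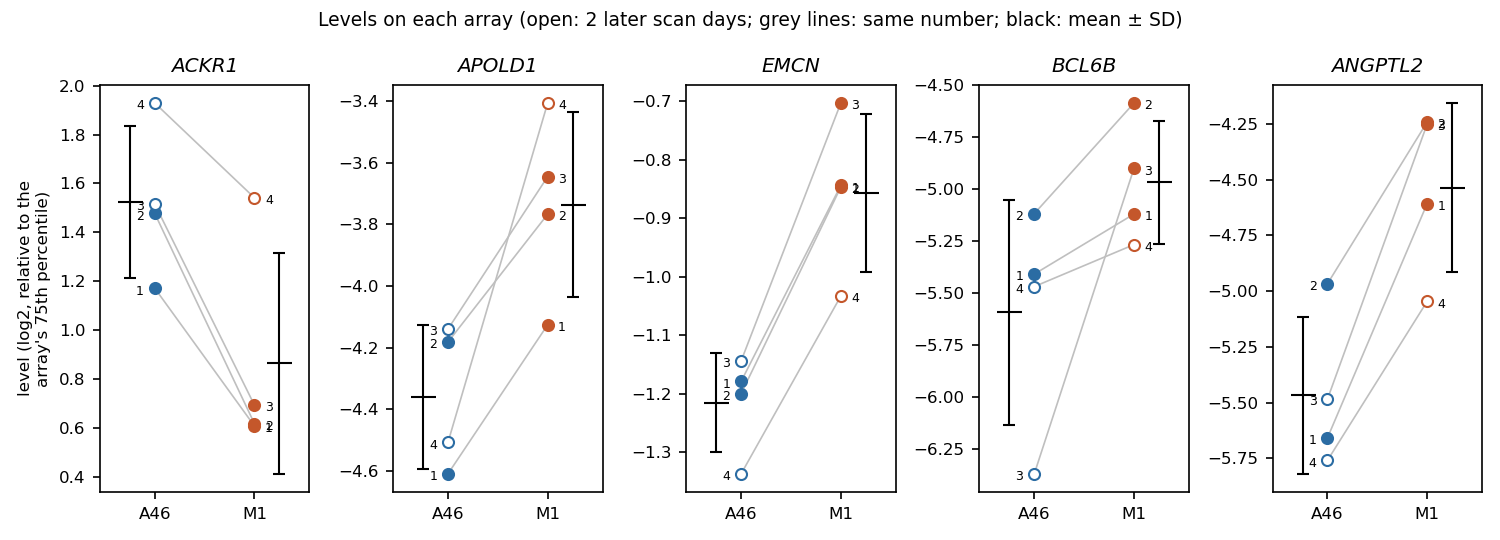
Level of each gene (y axis, log2 with the array's 75th percentile at 0, a separate scale for each gene) on the 4 A46 and 4 M1 arrays, numbered by replicate, with grey lines joining equal numbers, open points for the arrays of the 2 later scan days and black bars for the mean ± SD. From A46 to M1 the line goes down in all 4 pairs for ACKR1 and up in all 4 for each of the other genes.

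The arrays themselves were not all alike. The share of probes well above background ran from 71.4% to 77.3%, the 75th percentile lay between 1232 and 2008 scanner units, and the median negative control lay between 1.11 and 4.90 units, highest on M1 replicate 4. Scans were made on 4 days. The arrays of the 2 later days, A46 replicates 3 and 4 and M1 replicate 4, scored 37.0 to 44.8 on the first principal component of the tested probes (48.4% of the variance), against -37.4 to -16.6 for the other 5 arrays. Pairs 1, 2 and 4 were scanned on 1 day each, the arrays of pair 1 on a shared slide, while those of pair 3 were scanned on different days. A46 replicate 3 was the only array of its scan day. A fit with the scan day as a block therefore takes nothing on the difference between the areas from that array.

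ANGPTL2 had the largest difference of the 5. In A46 it lay at -5.66, -4.97, -5.48 and -5.76 on replicates 1 to 4. In M1 it lay at -4.61, -4.24, -4.25 and -5.05. The areas overlapped through a single pair of arrays, since M1 replicate 4, the lowest of M1, lay below A46 replicate 2, the highest of A46, by 0.08. The means were -5.47 ± 0.35 (SD, n = 4) in A46 and -4.54 ± 0.38 in M1, a 1.91-fold higher signal in M1 (log2 difference 0.93 ± 0.24 SE, 95% interval 0.39 to 1.47, limma adjusted p = 0.199). Of all tested probes, bright and dim together, 1.53% differed by as much in either direction. The same share was 4.18% for ACKR1, 4.84% for APOLD1 and 4.87% for BCL6B. The pair differences of ANGPTL2 were 1.05, 0.73, 1.23 and 0.71 for numbers 1 to 4. They lay closer together than the levels of either area, and with the replicate block the SE was 0.12, the 95% interval 0.64 to 1.22 and the limma adjusted p 0.0304.

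The ANGPTL2 probe was among the dim ones, with 24.0 to 87.4 scanner units per spot. Its 2 spots on an array differed by a median of 0.30 log2 units and by 0.42 at most, which is less than the smallest pair difference. Both spots lie on 1 array, so their gap does not measure the variation between arrays. After normexp background correction with quantile normalization the difference was 0.40, and the limma adjusted p was 0.340 without the block and 0.0691 with it. An added offset shrinks log2 differences of dim probes in general. This setting also changed the signal used, the background correction and the scaling, and the part of each in the smaller difference was not tested. With the scan day as a block, which leaves A46 replicate 3 without weight, ANGPTL2 stood at 0.82 and passed (limma adjusted p = 0.0429). Within the first scan day the mean of M1 replicates 2 and 3 exceeded A46 replicate 2 by 0.72. With the block, leaving out pair 1, 2 or 4 ended the call (limma adjusted p = 0.173, 0.134 and 0.111), and leaving out pair 3 did not (0.0320), while the difference stayed between 0.83 and 1.00. The blocked call also ended when dim probes were kept in the test (limma adjusted p = 0.111).

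ACKR1 went the other way. In A46 it lay at 1.17, 1.48, 1.51 and 1.93 on replicates 1 to 4, and in M1 at 0.61, 0.62, 0.69 and 1.54. M1 replicates 1, 2 and 3 lay close together and below every A46 array, and M1 replicate 4 lay above 3 of the A46 arrays. The means were 1.52 ± 0.31 (SD, n = 4) in A46 and 0.86 ± 0.45 in M1, a 1.58-fold higher signal in A46 (log2 difference -0.66 ± 0.25 SE, 95% interval -1.22 to -0.09, limma adjusted p = 0.429). The array of the same number in A46 was also the highest of its area, so the pair differences were -0.56, -0.86, -0.82 and -0.39. With the replicate block the SE was 0.11, the 95% interval -0.93 to -0.39 and the limma adjusted p 0.0470.

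The ACKR1 signal was bright, at 1861 to 6939 units per spot, and its spots differed by 0.15 log2 units at most. On M1 replicate 4 the spots read 5781 and 5907 units, beside a median negative control of 4.90 units on that array. Without that array the difference was -0.88 (limma adjusted p = 0.117). The blocked call was lost with any pair left out (limma adjusted p = 0.0683 to 0.192, differences -0.75 to -0.59). It was also lost after normexp (-0.55, limma adjusted p = 0.0664) and when dim probes were kept in the test (limma adjusted p = 0.142). With the scan day in place of the number as a block the difference was -0.61 (limma adjusted p = 0.0708). Within scan days the difference was -0.82 on the first, -0.56 on the second and -0.39 on the third. ACKR1 stood higher on the later scans in both areas, by 0.40 on average in A46 and by 0.90 for the single later array of M1. The other 4 genes shifted too. On the later scans ANGPTL2 differed by -0.31 in A46 and -0.68 in M1, and BCL6B by -0.66 and -0.40. EMCN differed by -0.05 and -0.23, and APOLD1 by 0.07 and 0.44. In bulk tissue, fewer cells of a type and less RNA per cell cannot be told apart, for ACKR1 as for the other 4 genes.

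EMCN had the smallest difference of the 5 and the smallest spread. In A46 it lay at -1.18, -1.20, -1.14 and -1.34, and in M1 at -0.84, -0.85, -0.70 and -1.03. The areas did not overlap, with a gap of 0.11 between M1 replicate 4 and A46 replicate 3. EMCN and APOLD1, 2 of the 5 genes, showed no overlap, as did 6.46% of all tested probes, 3.5% with M1 higher. The means were -1.22 ± 0.08 (SD, n = 4) in A46 and -0.86 ± 0.14 in M1, a 1.28-fold higher signal in M1 (log2 difference 0.36 ± 0.11 SE, 95% interval 0.10 to 0.62, limma adjusted p = 0.323). For comparison, the median SD within an area over all tested probes was 0.26 in A46 and 0.25 in M1. The pair differences of EMCN were 0.34, 0.35, 0.44 and 0.30. With the replicate number as a fixed block EMCN missed the threshold (SE 0.08, 95% interval 0.16 to 0.55, limma adjusted p = 0.0799), and as a random block it passed (0.0249). A difference of its size was not rare on these arrays, since 16.8% of all tested probes differed by as much. After normexp it stood at 0.22 (limma adjusted p = 0.585).

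APOLD1 lay at -4.61, -4.18, -4.14 and -4.51 in A46 and at -4.13, -3.77, -3.65 and -3.41 in M1. The areas did not overlap, but the gap between A46 replicate 3 and M1 replicate 1 was only 0.01. The means were -4.36 ± 0.23 (SD, n = 4) and -3.74 ± 0.30, a 1.54-fold higher signal in M1 (log2 difference 0.62 ± 0.18 SE, 95% interval 0.20 to 1.04, limma adjusted p = 0.285; 0.0803 with the fixed block and, past the threshold, 0.0274 with a random one). The pair differences of numbers 1 to 3 were alike, at 0.48, 0.42 and 0.49, and that of number 4 was 1.10.

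The 2 spots of APOLD1 on M1 replicate 4 did not give the same value. They read 118 and 304 units, 2.58-fold apart or 1.37 on the log2 scale, and neither was called an outlier by the scanner software. Of 14681 tested probes with 2 such spots on that array, 22 (0.150%) had a gap as large, and the median gap was 0.08. On the other 7 arrays the spots of APOLD1 differed by 0.21 log2 units at most. Taking the lower spot on every array, a choice made after the values were seen, gave pair differences of 0.47, 0.40, 0.46 and 0.48. The difference between the areas was then 0.45 ± 0.16 SE (limma adjusted p = 0.385), and with the block 0.45 ± 0.08 SE, past the threshold (limma adjusted p = 0.0486). The areas still did not overlap with the lower spots (A46 -4.63 to -4.19, M1 -4.16 to -3.75). After normexp APOLD1 stood at 0.25 (limma adjusted p = 0.658; 0.357 with the block).

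**Figure D2:**
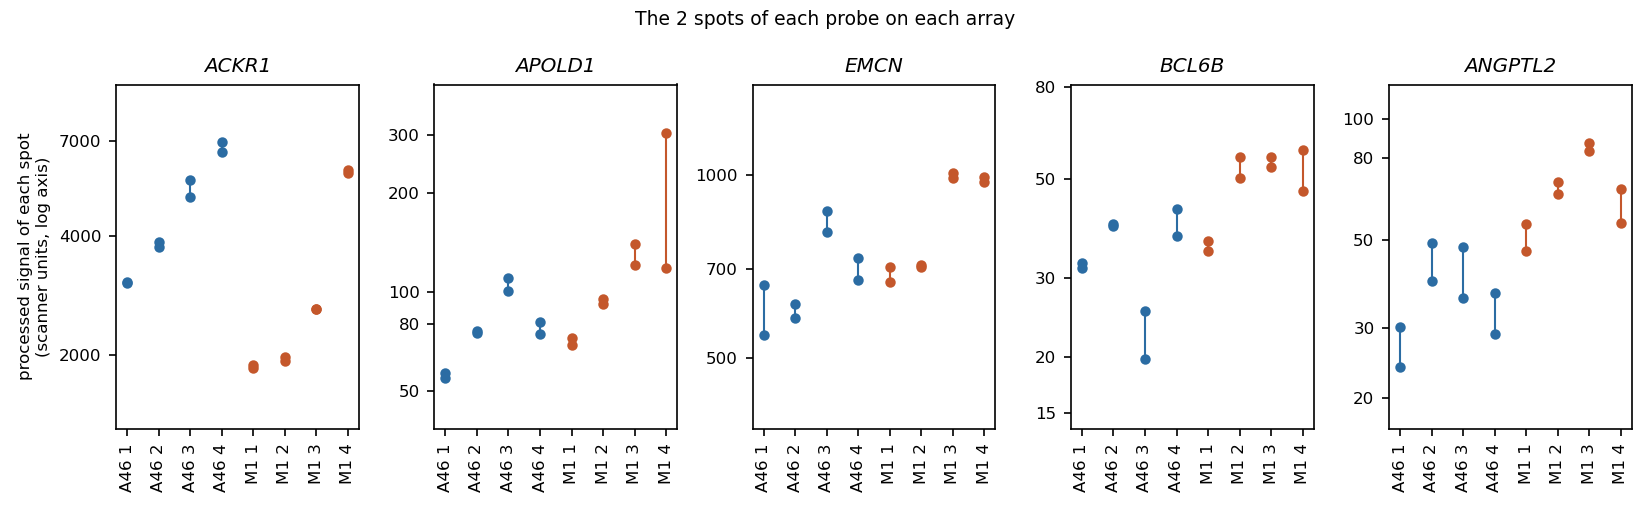
Processed signal of both spots of each probe (y axis, scanner units, log axis, before scaling between arrays) on the 8 arrays, blue for A46 and orange for M1, with a line joining the 2 spots. The spots of APOLD1 on M1 replicate 4 lie at 118 and 304 units, and elsewhere the spots of a gene lie at most 0.42 log2 units apart.

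BCL6B varied more between the A46 arrays than any of the other 4 genes. In A46 it lay at -5.41, -5.12, -6.37 and -5.47, and in M1 at -5.12, -4.59, -4.90 and -5.27. The areas overlapped, since A46 replicate 2 lay above M1 replicates 1 and 4, and A46 replicate 3 lay far below all other arrays. The means were -5.59 ± 0.54 (SD, n = 4) and -4.97 ± 0.30, a 1.54-fold higher signal in M1 (log2 difference 0.62 ± 0.27 SE, 95% interval -0.002 to 1.25, limma adjusted p = 0.530; 0.189 with the block). The pair differences were 0.29, 0.53, 1.47 and 0.20, the 1.47 coming from the pair with A46 replicate 3. Without A46 replicate 3 the difference was 0.36 (limma adjusted p = 0.804), and without pair 3 it was 0.34 with the block (limma adjusted p = 0.136). With the scan day as a block it was 0.30 (limma adjusted p = 0.225). That fit also takes nothing from A46 replicate 3, so it is not a separate check from leaving that array out. After normexp it was 0.24 (limma adjusted p = 0.666). This probe was dim, at 19.8 to 57.9 units per spot, and the 2 lowest readings were those of A46 replicate 3 (19.8 and 25.3 units).

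**Figure D3:**
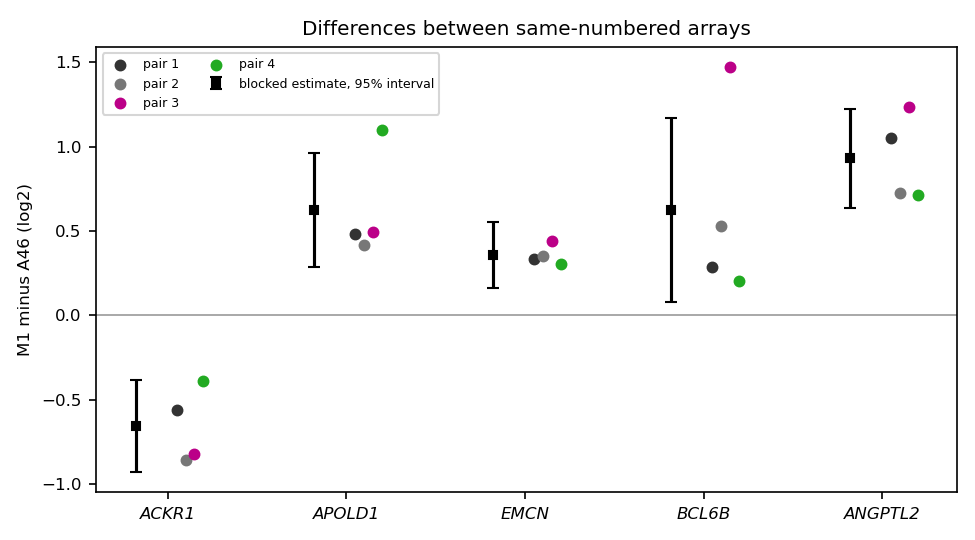
M1 minus A46 (y axis, log2) for each gene between arrays of the same number (points, 4 pairs) beside the estimate with the replicate block and its 95% interval (black squares). ACKR1 lies between -0.86 and -0.39 and the other genes lie above 0 in every pair; the 1.47 of BCL6B in pair 3 and the 1.10 of APOLD1 in pair 4 stand apart from the other pairs of those genes.

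Exact two-sided permutation tests over the 8 arrays, split 4 and 4, can give no p below 0.0286. In this exact test APOLD1 and EMCN reached that smallest p, as any gene without overlap does, and ANGPTL2 (p = 0.0571), BCL6B (p = 0.0857) and ACKR1 (p = 0.114) did not. Each is an unadjusted test of 1 gene. With 4 pairs an exact test of the signs can give no p below 0.125, and all 5 genes stood there.

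Because ACKR1 and the other genes were read on the same arrays, the ratio between them does not depend on the constant by which an array is scaled. The log2 ratio of EMCN to ACKR1 was larger in M1 by 0.90, 1.21, 1.26 and 0.69 in pairs 1 to 4, and that of ANGPTL2 to ACKR1 by 1.62, 1.59, 2.06 and 1.10. The ratio of APOLD1 to ACKR1 was larger in M1 by 1.05 to 1.49 and that of BCL6B by 0.59 to 2.29. All 4 ratios had to be larger in M1 in every pair, since each gene was higher and ACKR1 lower in M1 in every pair. The ratios restate those differences and add no support of their own. These ratios were not tested.

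Across the 8 arrays the levels of EMCN and ANGPTL2 went together (r = 0.912) and opposite to ACKR1 (r = -0.893 for EMCN and -0.824 for ANGPTL2). Over the 5 arrays of the 2 earlier scan days these values were 0.862, -0.911 and -0.713. These arrays share areas, pairs and scan days, so r is only a description. Among 547 named and tested genes, those with the level pattern most like ANGPTL2 over the 8 arrays were EDIL3 (r = 0.967), NIPA1 (0.947) and SCARB2 (0.924). They encode, in that order, a secreted integrin ligand, a magnesium transporter and a lysosomal membrane protein. EDIL3 was also most like EMCN (r = 0.953), before NIPA1 (0.930) and MAP6D1 (0.913). Those most like ACKR1 were GABPB1 (r = 0.931), a subunit of an ETS-family transcription factor complex, GABRR2 (0.893), a GABA receptor subunit gene, and RXRB (0.891), a nuclear receptor gene. BCL6B was most like HSPA4 (0.968), DUSP16 (0.933) and ARSB (0.896), and APOLD1 most like IDI1 (0.878), TK2 (0.858) and EPHA2 (0.836). Over the 5 earlier arrays the r of these 15 likenesses lay between 0.743 and 0.978. EDIL3 and NIPA1 were thus named for both ANGPTL2 and EMCN. EDIL3 stood 0.51 higher in M1 (limma adjusted p = 0.231; 0.0388 with the block). NIPA1 stood 0.27 higher in M1 and passed in neither fit (limma adjusted p = 0.468; 0.135 with the block).

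The rest of the vascular programme could be read only in small part. Of 192 genes listed as endothelial, leukocyte traffic, angiogenic, barrier or mural genes, 15 had a named probe, and 10 of these were other than the 5 genes. Of the 10, 6 were tested and none passed, without or with the block (EFNA1 alone, 1 of the 6, had an unadjusted p under 0.05 in either limma fit). Their median difference was -0.05, against 0.62 for the 5 genes, with ACKR1 among them at -0.66, and -0.01 for all tested probes. The 5 genes were chosen with results of these arrays known, so this contrast is only a description. No listed barrier or mural gene had a named probe. The general endothelial markers PECAM1, CDH5, VWF and CLDN5 were not analysed here, so the endothelial label of the 5 genes could not be checked against them.

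Among the 6, EFNA1, an ephrin ligand with a role in angiogenesis, was closest to the direction of ANGPTL2. It lay at -4.15 to -3.58 in A46 and at -3.64 to -2.94 in M1 (log2 difference 0.59 ± 0.19 SE, limma adjusted p = 0.338; 0.0756 with the block), and was higher in M1 in 4 of 4 pairs. The other 5 tested genes stood nearer to 0. They were PALMD, an endothelial palmdelphin gene (-0.36 ± 0.35 SE), MET, the receptor of hepatocyte growth factor (-0.19 ± 0.17), CX3CL1, the membrane-bound chemokine fractalkine (-0.08 ± 0.43), GJA5, a connexin of arterial endothelium (-0.02 ± 0.18), and HEY1, a Notch target (0.04 ± 0.14), with limma adjusted p from 0.860 to 0.991. PALMD was lower in M1 in 4 of 4 pairs (-0.84, -0.06, -0.53 and -0.01), and MET, CX3CL1, GJA5 and HEY1 had pairs in both directions. Of the 4 that were not tested, ESM1, an endothelial proteoglycan, and LYVE1, a hyaluronan receptor of lymphatic endothelium, were well above background on 3 arrays of A46 and 2 of M1 each. LEP, leptin, was well above background on 1 array of A46 and none of M1, and SELE, E-selectin, on none. The differences of these dim probes were -0.81 for ESM1, -0.63 for LYVE1, -0.89 for LEP and 0.49 for SELE. LYVE1 was lower in M1 in 4 of 4 pairs, and the other untested genes had pairs in both directions.

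**Figure D4:**
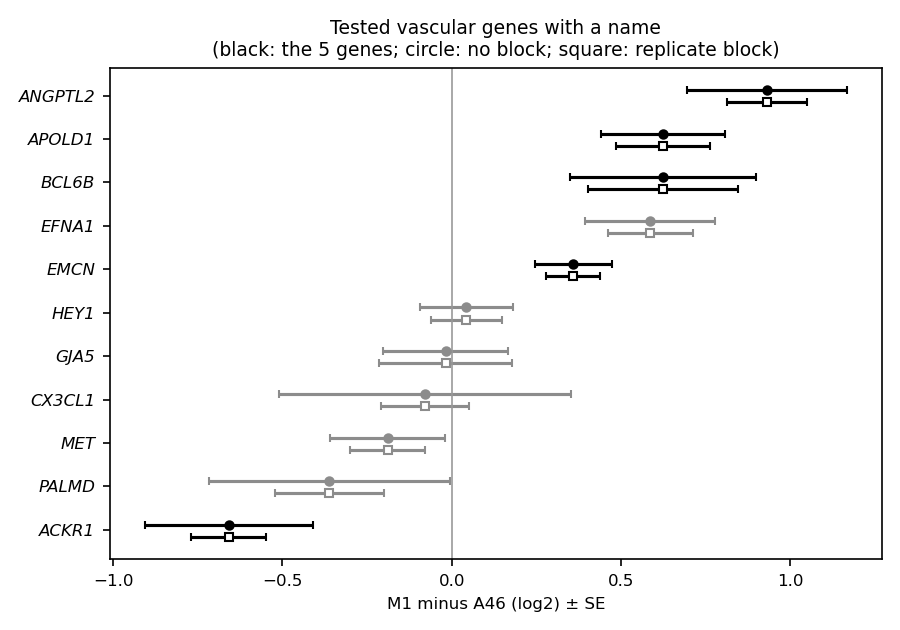
M1 minus A46 (x axis, log2) ± SE for the 11 tested genes of the vascular lists, without the block (circles) and with it (open squares), black for the 5 genes of this account and grey for others. ANGPTL2 lies highest at 0.93 and ACKR1 lowest at -0.66, while HEY1, GJA5 and CX3CL1 lie within 0.08 of 0.

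Markers of other cell types were measured beside these genes. Of 21 oligodendrocyte markers 3 were tested, and UGT8, an enzyme of myelin lipid synthesis, lay higher on every M1 array (-2.28 to -1.14) than on any A46 array (-4.02 to -3.35; log2 difference 1.64 ± 0.28 SE, limma adjusted p = 0.0622; 0.0285 with the block). The summed level of the 3, in units of the 75th percentile, was 0.0908 to 0.132 in A46 and 0.251 to 0.516 in M1. The sum is linear, so UGT8, the brightest of the 3, weighs most in it. ZNF488 stood at 1.37 ± 0.25 SE (limma adjusted p = 0.0839, and 0.0388 with the block). TSPAN2 stood at 0.38 ± 0.11 SE (limma adjusted p = 0.2865, and 0.1105 with the block). The part of these markers in the differences of the 5 genes was not tested. The platelet gene ITGA2B, in the blood and leukocyte list, stood at -0.30 ± 0.38 SE (limma adjusted p = 0.912). Like ACKR1 it was lower in M1 in 4 of 4 pairs (17.0% of all tested probes), with differences of -0.16, -0.22, -0.50 and -0.30. With the block its SE was 0.09, the unadjusted limma p 0.0194 and the adjusted p 0.151. Its part in the difference of ACKR1 was not tested. The summed level of the 2 tested genes of 31, in which the brighter ITGA2B weighs most, overlapped between the areas (0.196 to 0.481 in A46, 0.171 to 0.435 in M1). HBE1, an embryonic globin gene, was the other of these 2, so the content of red blood cells, which also carry ACKR1, was not measured by adult globin genes. HBE1 stood at -0.07 ± 0.34 SE, with pair differences of 0.46, 0.11, -1.12 and 0.26. Also with a named probe, but not tested, were the globin gene HBG2 and the platelet gene PF4. HBG2 was higher in M1 in 4 of 4 pairs (difference 1.115) and well above background on 2 arrays of A46 and 3 of M1. PF4 stood 0.48 higher in M1 and was well above background on no array. FGFR3 of astrocytes stood at -0.05 ± 0.14 SE. EGR4, the only tested immediate early gene, stood at -0.33 ± 0.19 SE (limma adjusted p = 0.694). APOL2, of the family that shares the apolipoprotein L domain with APOLD1, stood at 0.19 ± 0.13 SE (limma adjusted p = 0.775). No paralog or partner of BCL6B in the list had a named probe, and neither had any listed microglia or neuron marker.

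**Figure D5:**
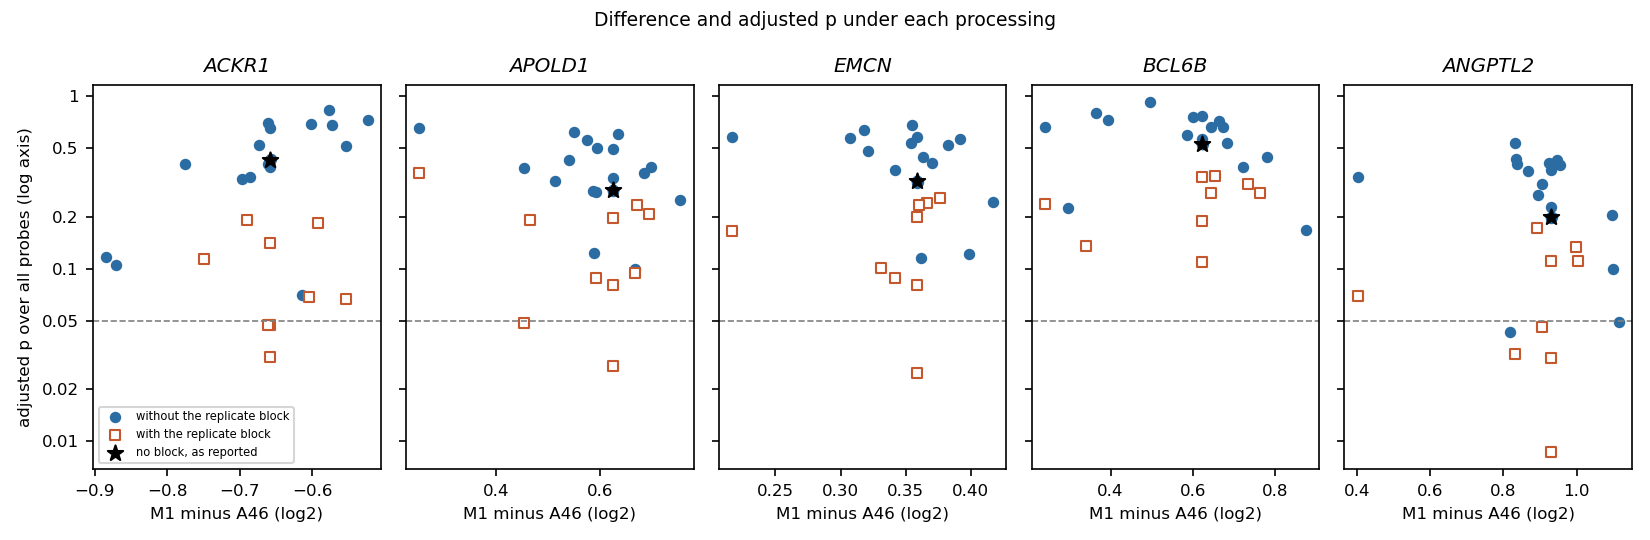
M1 minus A46 (x axis, log2) and adjusted p over all tested probes (y axis, log axis) of each gene under every limma fit made, blue without the replicate block, orange squares with it, and a star for the fit without pairing that the text leads with. The dashed line is the threshold of 0.05; points of ANGPTL2, ACKR1, APOLD1 and EMCN reach below it and none of BCL6B does.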

How the data were processed

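The authors' deposited scanner files give an intensity per spot in linear scanner units, background-subtracted and detrended by Agilent Feature Extraction 10.7.3.1, per the file headers, and not normalized between arrays. RNA was primed with oligo(dT) and labelled with Cy3, per the labels' protocols. The authors' deposited log2 values, used as an alternative, followed the scanner values between arrays with a slope of 1; their column medians were -0.06 to 0.09, and their baseline per probe is not stated.

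Control spots and outlier spots (0 to 220 per array) were left out, log2 processed intensities were averaged per probe (2 spots) and shifted by the array's 75th percentile. The 14683 of 20217 probes well above background at all used spots on all 4 arrays of at least 1 area, with a value on every array, were tested with limma 3.58.1 in R 4.3.3 (area as the only term, Benjamini-Hochberg adjustment at 0.05); tables were made with Python 3.11.15. The number of arrays limits the precision (median SE 0.18, or 0.11 with the block). RefSeq identifiers were matched without versions to names of the assembly T2T-MMU8v2.0; 942 of 5583 matched. Probes with other identifiers were not named, and no coordinates are given, since the array was designed on rheMac2.

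Deviations from the area mean correlated between same-numbered arrays with r = 0.726, 0.634, 0.169 and 0.858, each over 0.1, so the numbers were taken to pair the samples; A46 replicate 3 correlated more with M1 replicate 4 (0.481), scanned late like it. A46 replicate 2 and M1 replicate 3, of different numbers but scanned on the same day, also correlated more (0.259) than pair 3. Pairs 1, 2 and 4 were each scanned on 1 day, so this check cannot tell a shared animal from a shared scan day. The pairing thus rests on this check alone, and blocked values, with the number as a fixed term, stand beside results whose call they change. The members and gene lists were chosen with earlier results of these data known. Genes named were all members, every listed vascular gene with a named probe, for other lists the tested member with the smallest p, and for each member the 3 named genes of highest r. APOL2, HBE1, HBG2, PF4, ZNF488 and TSPAN2 are given beyond this rule, after their values were seen. The rule asked for r within the first scan day, which holds 3 arrays; the 5 arrays of the first 2 days were used instead. Where a gene had several probes the brightest was used. Alternatives were normexp (offset 50, on median spot and background signals), median or quantile scaling, the authors' table, other filters, fixed and random blocks, scan day, array weights, an intensity trend, exact tests and leaving out arrays or pairs.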

Additional observations from a re-analysis of the deposited data

Results flagged for a closer look

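Of 66 sets of 4 values looked at, 7 held a value far outside the range of the rest, and about 3.3 would by chance. M1 replicate 4 gave 4 of the 7: ACKR1 (level 1.54, others 0.61 to 0.69), the gap between the 2 spots of APOLD1 (1.37 log2 units, others 0.05 to 0.21), the negative control signal (4.90 units, others 1.22 to 1.35) and MET (level -2.81, others -2.47 to -2.43). In A46 replicate 1 CX3CL1 lay low (-6.25, others -4.84 to -4.56), and so did SELE (-10.2, others -8.82 to -8.64), which was not well above background on any array. UGT8 lay high in M1 replicate 2 (-1.14, others -2.28 to -2.13).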

How the results depend on the processing

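The direction of each of the 5 genes was the same in all settings run, 29 to 31 per gene. For ACKR1 the difference ran from -0.88 to -0.52, for ANGPTL2 from 0.40 to 1.12, for APOLD1 from 0.25 to 0.75, for EMCN from 0.22 to 0.42 and for BCL6B from 0.24 to 0.88, and BCL6B passed in no fit (limma adjusted p 0.110 to 0.929). Settings that brought a gene past 0.05 are given with their limma adjusted p. With the fixed replicate block ACKR1 (-0.66, limma adjusted p = 0.0470) and ANGPTL2 (0.93, 0.0304) passed in limma, also with quantile normalization (-0.66, 0.0470, and 0.91, 0.0462). With a random replicate block ACKR1 (-0.66, 0.0305), ANGPTL2 (0.93, 0.00867), APOLD1 (0.62, 0.0274) and EMCN (0.36, 0.0249) passed. ANGPTL2 also passed with array weights (1.12, 0.0494), the scan day as a block (0.82, 0.0429) and the replicate block without pair 3 (0.83, 0.0320). APOLD1 passed with its lower spots and the block (0.45, 0.0486). By the exact test APOLD1 (0.62) and EMCN (0.36) reached the smallest p possible.

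The number of probes that differed was 27, and it was 48 with normexp, 45 with an intensity trend, 144 with array weights, 153 with the scan day as a block, 386 with the replicate block (386 also with quantile normalization, 504 with normexp) and 987 with a random block (correlation 0.604). When dim probes were kept it was 0 (1371 at an unadjusted limma p under 0.05; 0 and 2954 with the block) and 0 without the later scans (1158). Without 1 array it was 0 for 7 arrays (974 to 1422 unadjusted) and 6 without M1 replicate 4; without 1 pair, with the block, it was 3, 0 (2402 unadjusted), 403 and 2 for pairs 1 to 4. Leaving out 1 array moved ACKR1 between -0.88 and -0.52, ANGPTL2 between 0.83 and 1.10, APOLD1 between 0.51 and 0.75, EMCN between 0.31 and 0.42 and BCL6B between 0.36 and 0.78. Blocked fits under other scalings and filters and those with the lower spots were chosen after the data were seen. Dim probes (ANGPTL2, BCL6B and APOLD1) are the ones whose differences normexp shrank most.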
